A study of Mus musculus with 4 samples.

Results

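The 10 genes Lyve1, Cd163, Fcrls, Cbr2, Stab1, Gas6, Slco2b1, Mrc1, Pf4 and Cxcl14 are scavenger receptors, secreted factors and other products of tissue macrophages. They were chosen by symbol because their levels were among the lowest, relative to control tumours, in the monocytes and macrophages of tumours that overexpress Irf3 and Irf7. All 10 were found among the 12584 genes of the count table. The choice used measured values of that contrast, so every value of IRF3/7 tumours against control tumours is given here as a description.

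Gene expression was measured by single-cell RNA sequencing of CD45+ cells from tumours of the line YUMM1.7-OVA RTT. These tumours come from a mouse melanoma line that carries ovalbumin and is resistant to targeted therapy, and they were grown in Rag2-/- mice, which make no mature T or B lymphocytes. All mice received OT-1 CD8+ T cells, which recognise an ovalbumin peptide, by adoptive transfer (ACT) on day 7, and tumours were taken on day 10, 72 h later. The CTRL group was RTT with an mCherry vector, the IRF3/7 group was RTT with Irf3 and Irf7 overexpressed in the cancer cells, the COX2i group was RTT mCherry in mice given celecoxib, and the COX2i + 5-AZA group was RTT mCherry in mice given celecoxib and 5-azacytidine. Celecoxib inhibits the prostaglandin-forming enzyme COX2, and 5-azacytidine inhibits DNA methyltransferases. Each group had 1 library, made from 3 tumours that were pooled before the sort. The tumour-bearing mice were 6 to 12 weeks old, per the methods of the study, which give a wider age range for the donors of the OT-1 cells. A difference between groups is therefore a difference between 2 libraries with no replicate check, and no p-value is given.

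Macrophages that settle in tissues take up debris, modified lipoproteins, glycans and spent proteins, and they carry a set of endocytic receptors for this work. Monocytes that have newly entered a tissue express little of this set, and many of its genes are switched on as the cells mature into macrophages. In tumours the same genes mark part of the tumour-associated macrophages (TAMs). Among the receptors, Mrc1 encodes the mannose receptor CD206, Cd163 the receptor for haptoglobin and haemoglobin complexes, Stab1 the scavenger receptor stabilin-1, Lyve1 a hyaluronan receptor shared with lymphatic endothelium, and Fcrls an Fc receptor-like protein known from mouse microglia. Among the secreted products, Gas6 encodes a ligand that links dying cells to the receptors Tyro3, Axl and Mertk, Pf4 encodes the chemokine CXCL4, best known from platelets, and Cxcl14 encodes a chemokine of epithelia and stroma. Slco2b1 encodes a transporter of organic anions and Cbr2 a carbonyl reductase.

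The promoters of 4 of the genes are shown because the report returns to each of them: Stab1 as a gene of TAM_C1q and TAM_cycling, Pf4 and Cxcl14 as the members that went their own way in single comparisons, and Cd163 as the member carried by the fewest cells. Each is the 250 bases upstream of the transcription start from RefSeq on GRCm38.p6, written 5′ to 3′ on the strand of the gene. Capitals mark letters of the 5 motifs that were searched on both strands. The coordinates are chr14:31168642-31168891 (minus strand) for Stab1, chr5:90772185-90772434 (plus strand) for Pf4, chr13:56296552-56296801 (minus strand) for Cxcl14 and chr6:124304401-124304650 (plus strand) for Cd163.
Stab1: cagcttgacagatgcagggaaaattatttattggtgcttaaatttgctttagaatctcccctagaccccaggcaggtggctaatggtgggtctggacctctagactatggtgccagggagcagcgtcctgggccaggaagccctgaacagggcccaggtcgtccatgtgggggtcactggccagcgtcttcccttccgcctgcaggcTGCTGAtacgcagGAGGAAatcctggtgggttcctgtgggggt
Pf4: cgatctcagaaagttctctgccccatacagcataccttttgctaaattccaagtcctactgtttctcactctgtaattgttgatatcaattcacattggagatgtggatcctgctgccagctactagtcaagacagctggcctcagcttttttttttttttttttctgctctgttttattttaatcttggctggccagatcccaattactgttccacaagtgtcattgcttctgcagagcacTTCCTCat
Cxcl14: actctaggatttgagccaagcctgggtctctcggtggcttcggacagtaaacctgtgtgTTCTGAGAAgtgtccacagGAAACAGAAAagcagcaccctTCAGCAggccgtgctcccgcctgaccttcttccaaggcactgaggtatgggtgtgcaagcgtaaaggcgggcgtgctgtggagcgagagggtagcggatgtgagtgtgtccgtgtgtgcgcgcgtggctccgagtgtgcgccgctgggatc
Cd163: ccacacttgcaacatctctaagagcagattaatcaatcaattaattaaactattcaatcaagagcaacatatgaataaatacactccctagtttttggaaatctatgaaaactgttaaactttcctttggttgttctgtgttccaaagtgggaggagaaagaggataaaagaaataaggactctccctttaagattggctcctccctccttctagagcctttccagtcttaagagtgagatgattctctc

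The motifs were GAGGAA, the core bound by PU.1-type factors, TGCTGA, a Maf half-site, GAAANNGAAA, an interferon-stimulated response element (ISRE), TTCNNNGAA, a STAT-type site (GAS), and TATAAA. The Stab1 window held GAGGAA and TGCTGA, and the Pf4 window held GAGGAA on the other strand, next to the start. The Cxcl14 window held an ISRE, a GAS and, on the other strand, TGCTGA. The Cd163 window held none of the 5. The table of promoters had 11 entries for 9 of the 10 genes, with 3 entries for Slco2b1, and Lyve1 had none. GAGGAA was found in 6 of the 11 entries and in 23.3% of all 32851 promoters of the same length. TGCTGA was in 3 entries and in 16.1% of all promoters, GAS in 2 entries and 7.02%, ISRE in 1 entry and 2.98%, and TATAAA in 1 entry and 12.4%. These are matches of letters and not binding sites.

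The 4 libraries held between 6329 and 10032 cells and between 26356819 and 78722763 unique molecular identifiers (UMIs), and IRF3/7 was the shallowest, with a median of 3168 UMIs per cell against 6039.5 to 7502 in the others. No cell shared its whole barcode with a cell of another library, and 10018 of the 34447 cells shared only the part that names the droplet, as libraries that are loaded together do. Cell classes are those of the authors. Monocytes (Infl_Mono, Monocyte_1 and Monocyte_3) and macrophages (TAM_C1q, TAM_Spp1, TAM_cycling, TAM_H2Ab1, Ctsk_Macro and Macro) together made up 79.6 to 87.7% of each library, but the balance differed. Monocytes numbered 139 in CTRL, 4596 in IRF3/7, 558 in COX2i and 4684 in COX2i + 5-AZA, and macrophages numbered 7475, 439, 6820 and 4117. The macrophage markers C1qa and C1qb were between 6079 and 7992 CPM and between 4654 and 6001 CPM in the macrophages of all 4 libraries. Other macrophage markers varied more, with Apoe, a lipoprotein, at 28714, 18509, 8820 and 9336 CPM and Csf1r, the receptor for a macrophage growth factor, at 1297, 565, 1302 and 1079 CPM in CTRL, IRF3/7, COX2i and COX2i + 5-AZA. Plac8, a monocyte marker, was between 1828 and 7782 CPM in the monocytes. The monocytes of CTRL also carried C1qa at 5076 CPM and Apoe at 26925 CPM, near the 6684 and 28714 CPM of the macrophages of that library, against 1406 and 5801 CPM in the monocytes of IRF3/7. CPM are the UMIs of a gene per 1000000 UMIs of the same cells. They are not scaled by transcript length, so levels are compared for 1 gene at a time. Intervals are 95% intervals that cover counting error only.

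In monocytes and macrophages together, all 10 genes were lowest in IRF3/7, which is what the choice fixed. Fcrls stood at 2884 CPM in CTRL, 17.6 CPM in IRF3/7, 3397 CPM in COX2i and 973 CPM in COX2i + 5-AZA. Mrc1 stood at 2550, 120, 2543 and 1560 CPM in the same order of libraries. Pf4 stood at 1706, 82.4, 736 and 827 CPM. These were the 3 members with the most UMIs, and CTRL and COX2i were close for Fcrls and Mrc1 but not for Pf4. Stab1 was at 870, 22.3, 635 and 275 CPM in CTRL, IRF3/7, COX2i and COX2i + 5-AZA. Gas6 was at 396, 5.60, 299 and 165 CPM, and Cbr2 at 333, 3.36, 276 and 83.5 CPM. For these 3 genes the order of the libraries was the same, with CTRL highest, then COX2i, then COX2i + 5-AZA. Cxcl14 was at 165, 1.68, 129 and 59.4 CPM and Slco2b1 at 99.7, 0.616, 85.3 and 20.2 CPM, again in that order. Lyve1 was at 95.3, 0.728, 30.3 and 13.3 CPM, and Cd163 at 74.1, 0.952, 14.1 and 8.97 CPM. For Lyve1 and Cd163 the COX2i library stood nearer to COX2i + 5-AZA than to CTRL.

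**Figure D1:**
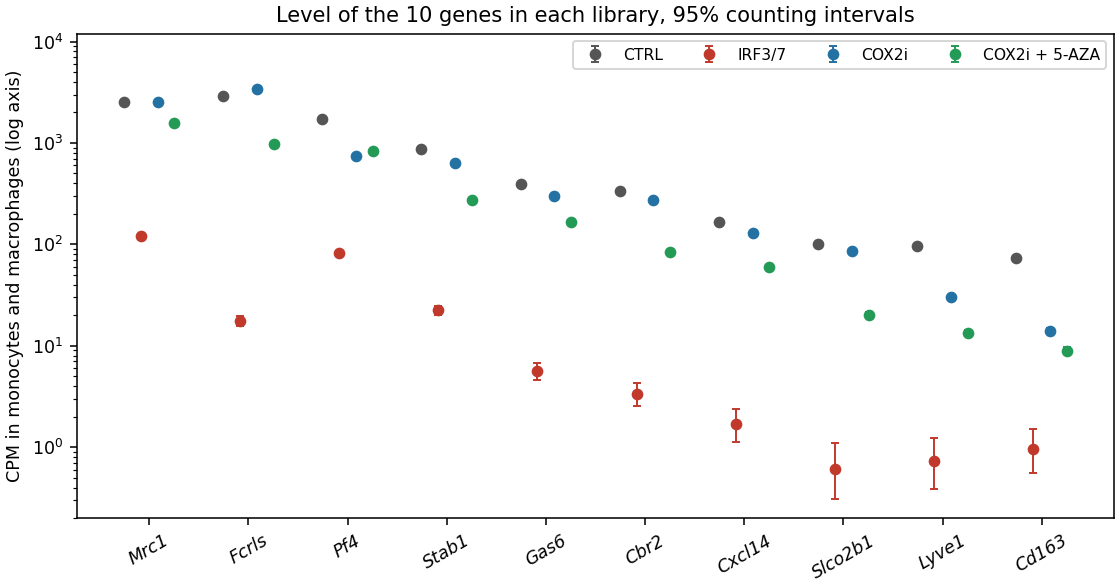
Level of each of the 10 genes in monocytes and macrophages together, in CPM on a log axis, with 1 point for each of the 4 libraries and bars for the 95% counting interval. The IRF3/7 point is the lowest for every gene, from 120 CPM for Mrc1 to 0.616 CPM for Slco2b1, and the CTRL and COX2i points nearly coincide for Mrc1 (2550 and 2543 CPM).

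In the contrast that chose the genes, the log2 ratio of IRF3/7 to CTRL ranged from -7.36 for Fcrls to -4.37 for Pf4, with a median of -6.45 over the 10 genes and -0.55 over the 11793 genes whose UMIs in the 2 libraries summed to 20 or more. All 10 members were lower by 2-fold or more, as were 32.2% of all those genes, and none was higher by 2-fold or more, against 9.16% of all genes. The pooled cells were mostly monocytes in IRF3/7 and mostly macrophages in CTRL. In macrophages alone the median was -4.10 over the members and -0.19 over all genes. How much of the pooled ratio came from the mix of classes could not be settled, since a split depended on its order. With the class levels of CTRL under the class mix of IRF3/7, which rest on 93 Infl_Mono cells of CTRL, the median part was -0.78 from the mix and -5.07 within classes. With the class levels of IRF3/7 under the class mix of CTRL, which rest on 7 TAM_C1q cells of IRF3/7 among other small classes, it was -3.41 from the mix and -1.91 within classes. Ranked from the lowest ratio, Fcrls was at position 2, Slco2b1 at 3, Lyve1 at 6, Cbr2 at 8, Cxcl14 at 9, Cd163 at 15 and Gas6 at 16, whereas Stab1 was at 49, Mrc1 at 131 and Pf4 at 137. The rule named no cut-off. Around Pf4, the last member, the genes Ctsk (-4.38) and Spp1 (-4.36) had nearly the same ratio, and among genes with at least 50 CPM that were not chosen, Pmp22 (-6.06) was lower than 3 of the members.

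The rule fixed that the members are low in IRF3/7 but not where the remaining UMIs lay. In CTRL, macrophages held 95.6% (Cxcl14) to 99.1% (Cd163) of the UMIs of each gene, against 79.5% of all UMIs. In IRF3/7, monocytes held 70.9% of the UMIs of Pf4, 61.3% of those of Stab1 and 55.7% of those of Mrc1, against 58.6% of all UMIs of that library, so for Stab1 and Mrc1 the share was near that of RNA as a whole. For Fcrls, 53.3% of the UMIs left in IRF3/7 were in the class TAM_H2Ab1, macrophages named for an MHC class II gene, which made up 6.08% of the cells of that library. Cxcl14 differed from the other 9 genes, as 65.9% of its 88 UMIs in IRF3/7 were in the non-immune class Myofibrobl, which made up 2.72% of the cells.

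The members divided by the macrophage class that carried them. Fcrls, Stab1, Pf4 and Slco2b1 had their highest CTRL level in TAM_C1q, macrophages named for complement C1q, or in the cycling class TAM_cycling. In CTRL these 2 classes together held between 58.6% (Cxcl14) and 94.7% (Fcrls) of the UMIs of each member, against 57.7% of all UMIs. Fcrls was at 3765 CPM in TAM_C1q of CTRL, 4017 CPM in TAM_cycling, 334 CPM in TAM_Spp1, 317 CPM in Ctsk_Macro and 645 CPM in the class Macro. Of these 5 classes, 2 thus had a high level and 3 a level several times lower. Stab1 was also high in these 2 classes, with 1216 CPM in TAM_C1q, 1046 CPM in TAM_cycling and 156 CPM in TAM_Spp1. Pf4 was more even, at 2310 CPM in TAM_C1q, 1532 CPM in TAM_cycling, 1085 CPM in TAM_Spp1 and 695 CPM in Ctsk_Macro.

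Lyve1, Cd163, Cbr2, Gas6 and Mrc1 were highest in the class Macro, a small class of 73 cells in CTRL and 105 in COX2i + 5-AZA. Lyve1 was at 1214 CPM in Macro of CTRL, against 104 CPM in TAM_C1q and 2.13 CPM in TAM_Spp1. Cd163 was at 895 CPM in Macro, 121 CPM in TAM_C1q and 1.64 CPM in TAM_Spp1, and Cbr2 at 1424, 459 and 24.2 CPM. For Gas6 (799 and 576 CPM in Macro and TAM_C1q) and Mrc1 (3521 and 3354 CPM) the 2 classes lay closer together. Macro held few of the cells, so most UMIs of these genes still lay in TAM_C1q and TAM_cycling. Cxcl14 had the opposite order. It was at 276 CPM in Ctsk_Macro, macrophages named for cathepsin K, 231 CPM in TAM_Spp1, 143 CPM in TAM_C1q and 16.1 CPM in Macro of CTRL. The study lists Fcrls, Pf4, Mrc1 and Stab1 among markers of TAM_C1q and Mrc1 and Cbr2 among those of Macro, and it drew those markers from data that include these libraries, so the class order of these genes is not independent of the class names.

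**Figure D2:**
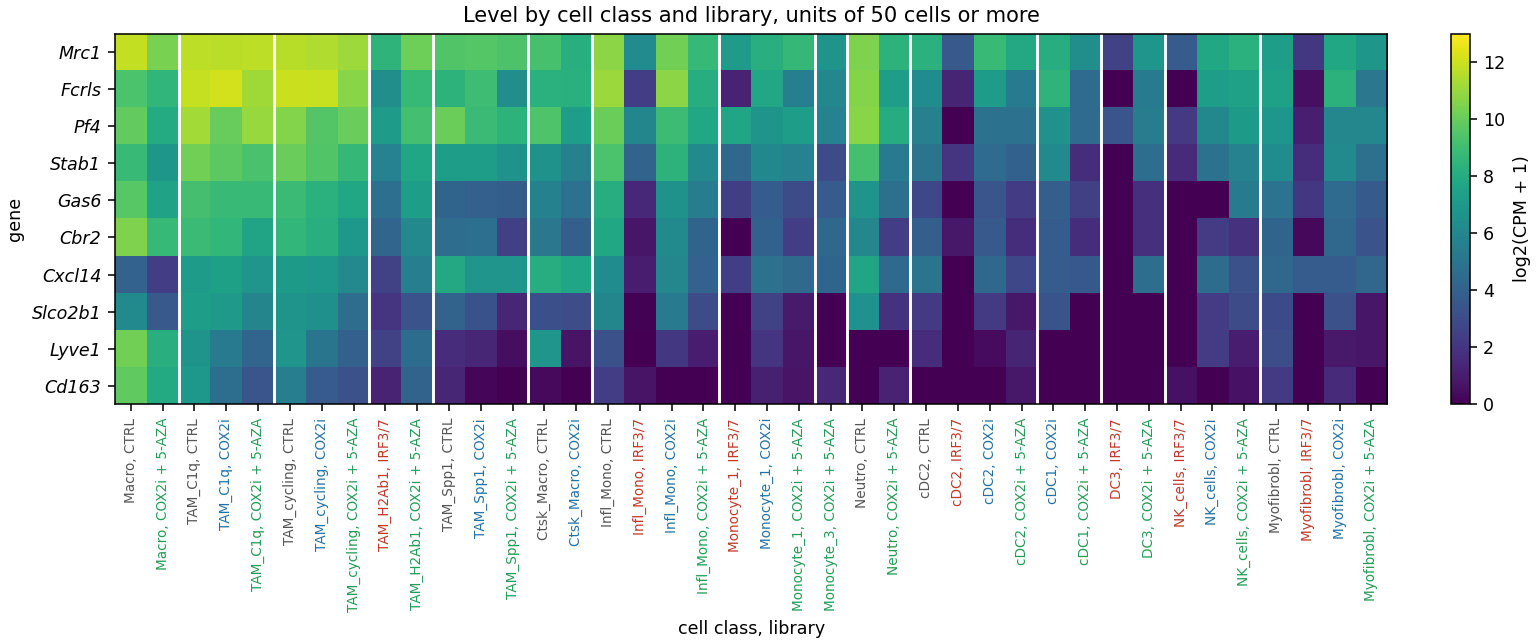
Level of each gene (rows) in each cell class of each library with at least 50 cells (columns, coloured by library), as log2(CPM + 1), with white lines between classes. Lyve1, Cd163 and Cbr2 are brightest in Macro of CTRL (1214, 895 and 1424 CPM), Fcrls in TAM_C1q and TAM_cycling, and Cxcl14 is dim in Macro (16.1 CPM) and brighter in Ctsk_Macro (276 CPM).

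Cd163 and Lyve1 were carried by few cells at many UMIs each. Of the 7614 monocytes and macrophages of CTRL, 244 had a UMI of Cd163, with a mean of 16.6 UMIs in those cells, and 578 had a UMI of Lyve1, with a mean of 9.01. The 77 cells with the most UMIs of the gene, 1% of the cells, held 76.3% of the Cd163 UMIs and 60.2% of the Lyve1 UMIs. The 77 cells highest in Fcrls held 6.40% of its UMIs, and the 77 highest in Mrc1 held 7.04% of its UMIs. Slco2b1 was spread thinly, with a mean of 2.06 UMIs per cell that had any, and no CTRL cell had 10. The number of cells with 10 or more UMIs of Cd163 was 121 in CTRL, 0 in IRF3/7, 34 in COX2i and 21 in COX2i + 5-AZA. For Lyve1 the numbers were 145, 0, 51 and 25.

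Cells with Cd163 were not the class Macro alone. In CTRL 62.3% of them were in TAM_C1q, 23.0% in TAM_cycling and 7.79% in Macro, where 26.0% of the 73 cells had a UMI of Cd163 and 50.7% a UMI of Lyve1. Lyve1 was detected in 36.5% of the 244 CTRL cells with Cd163 and in 6.64% of the 7370 without. Cbr2 was detected in 78.7% of the cells with Cd163 and 34.6% of those without, but Cxcl14 in 24.2% against 34.1%. The cells with Cd163 were deeper, at a median of 8593 UMIs against 6167.5, and the part of depth in these shares was not tested. In COX2i + 5-AZA, Lyve1 was in 24.6% of the 65 cells with Cd163 and in 1.95% of the rest.

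Celecoxib alone was compared with CTRL, a comparison that shares the CTRL library with the choice. In monocytes and macrophages 3 of the 10 members were lower by 2-fold or more, against 4.7% of 11905 genes. None was higher by 2-fold, against 1.93% of genes. The 3 genes were Cd163, with a log2 ratio of -2.39 (-2.50 to -2.29), Lyve1 at -1.65 (-1.73 to -1.58) and Pf4 at -1.21 (-1.23 to -1.20). The median over the members was -0.38 and the median over all genes 0.01. The other 7 genes lay between -0.45 for Stab1 and 0.24 for Fcrls (0.23 to 0.25), the only member that was higher in COX2i beyond counting error. Mrc1, at -0.0039 (-0.014 to 0.0065), did not differ beyond counting error.

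The lower levels of Cd163, Lyve1 and Pf4 in COX2i were found within classes that both libraries hold in number. In TAM_C1q (3199 and 2023 cells) the log2 ratio to CTRL was -2.30 for Cd163, -1.33 for Lyve1 and -1.20 for Pf4, and Apoe was also lower there, at 12859 against 41133 CPM. In TAM_cycling (1457 and 3164 cells) it was -1.94, -1.79 and -1.06. In TAM_Spp1, where Cd163 and Lyve1 were near 0 in both libraries, Pf4 was at -1.21 and Cxcl14 at -1.09, whereas Cxcl14 was at 0.22 in TAM_C1q. Ctsk_Macro differed in Lyve1. The gene had 422 UMIs in 48 of 380 such cells of CTRL and 1 UMI in the 157 cells of COX2i, a log2 ratio of -7.49.

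The combination of celecoxib and 5-azacytidine against CTRL again shares the CTRL library with the choice. In monocytes and macrophages 9 of the 10 members were lower by 2-fold or more, against 11.3% of 12001 genes, and none was higher, against 5.65%. The log2 ratio was -3.05 for Cd163, -2.84 for Lyve1, -2.30 for Slco2b1, -2.00 for Cbr2, -1.66 for Stab1, -1.57 for Fcrls, -1.48 for Cxcl14, -1.27 for Gas6, -1.04 for Pf4 and -0.71 for Mrc1. The median was -1.62 for the members and -0.16 for all genes. In macrophages alone 6 members were lower by 2-fold or more, against 8.89% of all genes. Mrc1 was thus the member that differed least, and Pf4 was past 2-fold by little, at -0.92 when scaled by size factors.

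The combination against celecoxib alone shares no library with the choice, although the genes were picked with all 4 libraries at hand. Of the 10 members, 6 were lower by 2-fold or more, against 9.77% of 11940 genes, and none was higher, against 6.16%. Slco2b1 was at -2.08 (-2.16 to -1.99), Fcrls at -1.80 (-1.82 to -1.79), Cbr2 at -1.72 (-1.77 to -1.68), Stab1 at -1.21 (-1.23 to -1.18), Lyve1 at -1.19 (-1.30 to -1.07) and Cxcl14 at -1.12 (-1.17 to -1.06). Gas6 at -0.86, Mrc1 at -0.71 and Cd163 at -0.65 were lower by less than 2-fold. Pf4 was the only member that was higher, at 0.17 (0.15 to 0.18), and it turned to -0.10 with each cell thinned to 2000 UMIs and to -0.13 as the mean of the cells' own CPM. The median was -1.15 for the members and -0.19 for all genes. The count of 6 was 5 in all cells, where 11.9% of 12264 genes were lower by 2-fold or more. It was 3 in macrophages alone, where 5.92% of all genes were lower by 2-fold or more. Cxcl14 was at -0.97 when scaled by size factors.

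**Figure D3:**
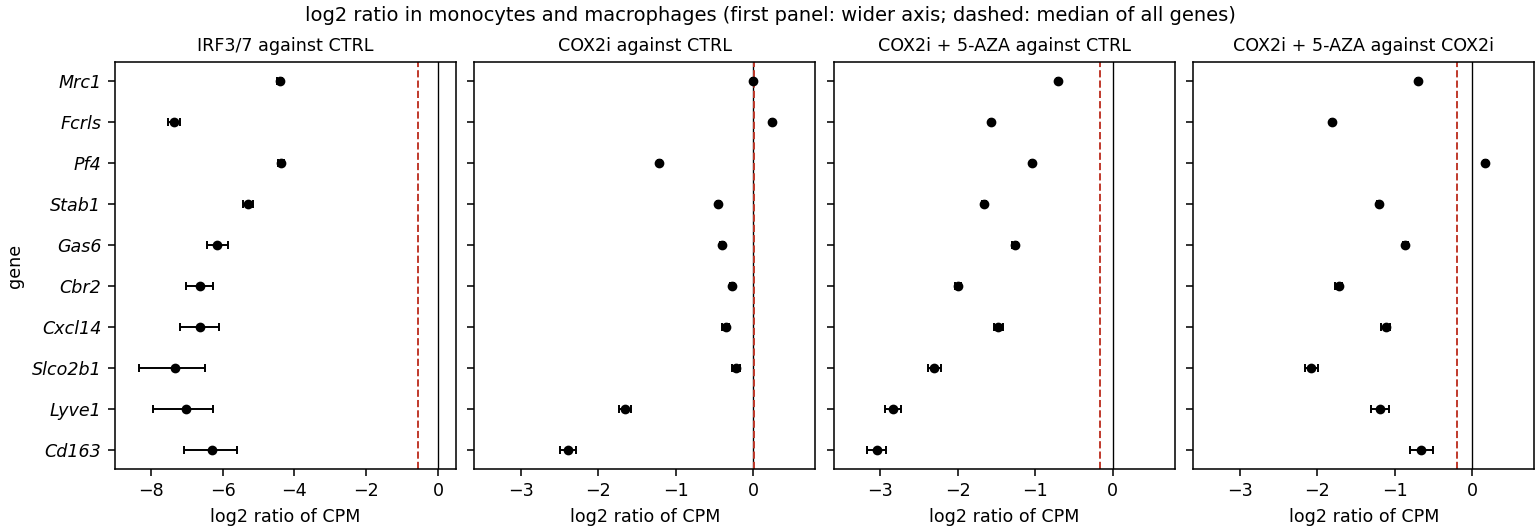
Log2 ratio of CPM in monocytes and macrophages for each gene (rows) in the 4 comparisons (panels, the first on a wider axis), with bars for the 95% counting interval, a solid line at 0 and a dashed line at the median of all genes. Cd163, Lyve1 and Pf4 stand apart from the other 7 genes in COX2i against CTRL, and Pf4 alone lies right of 0 in COX2i + 5-AZA against COX2i (0.17).

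The 2 libraries of that comparison differ in their makeup, with 558 monocytes in COX2i and 4684 in COX2i + 5-AZA. Each log2 ratio was therefore split into the part that arises when the class levels of the reference library are weighted by the class mix of the other, and the part that remains within classes. All 9 classes entered, down to the 2 Monocyte_3 cells of CTRL. Against COX2i the median part from the mix was -0.56 and the median part within classes -0.64. For Mrc1 the mix part was -0.59 and the part within classes -0.12, the smaller of the 2 in size. For Slco2b1 the parts were -0.65 and -1.43. For Pf4 they were -0.51 and 0.67 and had opposite signs. Against CTRL the median parts for COX2i + 5-AZA were -0.47 from the mix and -1.22 within classes. In the other order, with the class levels of COX2i + 5-AZA under the class mix of the reference library, the median parts were -0.51 and -0.73 against COX2i, and -0.58 and -1.03 against CTRL.

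**Figure D4:**
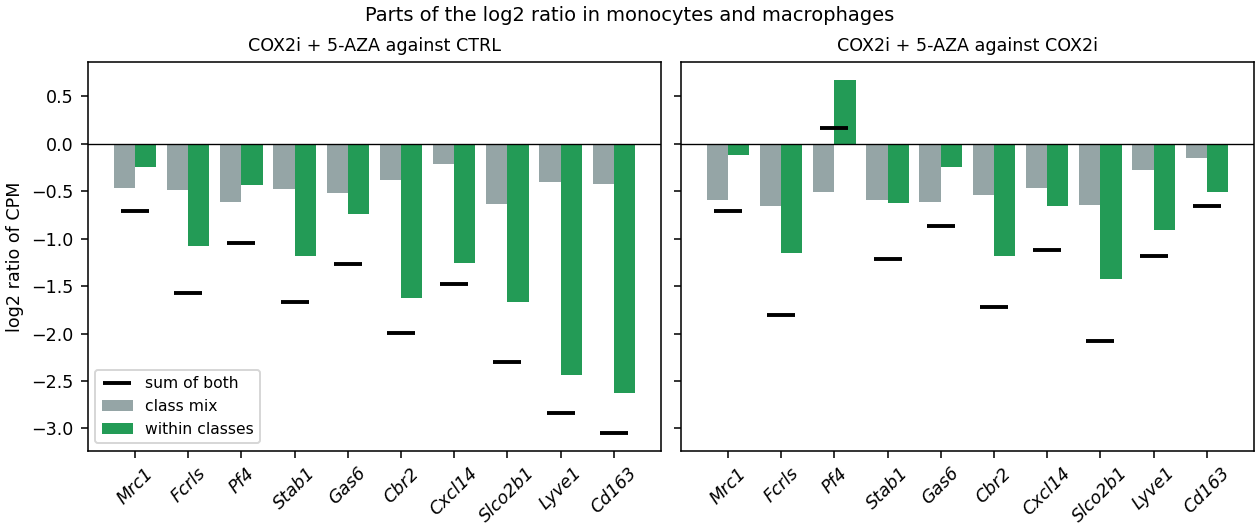
Parts of the log2 ratio in monocytes and macrophages for COX2i + 5-AZA against CTRL (left) and against COX2i (right), with a grey bar for the part from the class mix, a green bar for the part within classes and a black line for their sum. The grey bars lie below 0 for all 10 genes in both panels, and in the right panel the green bar of Pf4 (0.67) is the only one above 0.

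Within TAM_C1q, the class with the most UMIs of Pf4 in CTRL, the members went in different ways in COX2i + 5-AZA (1379 cells). Mrc1 was at 3354, 3277 and 3334 CPM in CTRL, COX2i and COX2i + 5-AZA. Pf4 was at 2310, 1003 and 2070 CPM, lower with celecoxib alone and near the CTRL level with the combination. Platelet markers had the same order in these cells, at sums of 88.9, 31.6 and 53.4 CPM with only Gp6 at 0 of the 7, and their part in the Pf4 level was not tested. Fcrls was at 3765, 4385 and 2291 CPM, lower with the combination alone. Cd163 was at 121, 24.6 and 9.79 CPM and Lyve1 at 104, 41.2 and 17.8 CPM, lower with celecoxib and lower again with the combination. Stab1 was at 1216, 855 and 621 CPM, a smaller difference in the same order. In the class Macro, COX2i + 5-AZA against CTRL gave a log2 ratio of -2.11 for Lyve1, -1.84 for Cd163 and -1.76 for Cbr2.

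Within inflammatory monocytes (Infl_Mono), the members were lower in COX2i + 5-AZA (764 cells) than in COX2i (130 cells) for all 8 genes with at least 20 UMIs. All 8 were lower by 2-fold or more, against 6.62% of 8823 genes, and the median was -2.04 over these members and -0.086 over all genes. Fcrls was at 1683 CPM in COX2i and 270 CPM in COX2i + 5-AZA, Mrc1 at 1184 and 416 CPM, and Pf4 at 475 and 218 CPM. In CTRL the 93 cells of this class were at 2135, 1708 and 1064 CPM for the 3 genes. The 4335 cells of IRF3/7 were at 4.07, 77.2 and 62.0 CPM. General macrophage markers moved with the members in this class. C1qa was at 6189 CPM in CTRL, 1364 in IRF3/7, 4046 in COX2i and 1678 in COX2i + 5-AZA, Apoe at 35414, 5786, 7280 and 2310 CPM, and the monocyte marker Plac8 at 1931, 7938, 4442 and 6572 CPM. Cells under this label thus differed in macrophage markers between libraries, and the part of this in the levels of the members was not tested. Infl_Mono of CTRL thus carried Fcrls at a level between those of its own TAM_Spp1 (334 CPM) and TAM_C1q (3765 CPM).

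For IRF3/7 the class-level values belong to the contrast that chose the genes and are given for their size alone. Of the classes of monocytes and macrophages, Infl_Mono was the only one with 50 cells in both IRF3/7 and CTRL, and there the log2 ratio was -9.03 for Fcrls, -8.14 for Cbr2, -7.33 for Gas6, -6.27 for Cxcl14, -5.25 for Stab1, -4.47 for Mrc1 and -4.10 for Pf4. Slco2b1 had a single UMI there in IRF3/7. These ratios come with the shift in C1qa and Apoe given for this class, where the 93 CTRL cells were near the macrophages of CTRL. In TAM_H2Ab1 of IRF3/7 (385 cells) all 10 genes were lower than in TAM_H2Ab1 of COX2i + 5-AZA (419 cells). Mrc1 was at 354 against 1120 CPM, a log2 ratio of -1.66 (-1.78 to -1.55), Pf4 at 145 against 548 CPM and Fcrls at 84.5 against 422 CPM. The IRF3/7 level was thus the lower one for each of these receptors and for the chemokine. Other macrophage genes were not all low in IRF3/7. Over all macrophages of that library, C1qa was at 7992 CPM against 6684 CPM in CTRL and Adgre1, which encodes F4/80, at 555 against 487 CPM, whereas Csf1r was at 565 against 1297 CPM.

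Pf4 and Cxcl14 each had a class in which IRF3/7 was not the lowest library. In Monocyte_1, Pf4 was at 208 CPM in IRF3/7 (147 UMIs, 251 cells), 106 CPM in COX2i (177 UMIs, 394 cells) and 151 CPM in COX2i + 5-AZA (3183 UMIs, 3640 cells). The log2 ratio of IRF3/7 to COX2i was 0.97 (0.64 to 1.29) and to COX2i + 5-AZA 0.46 (0.21 to 0.70). CTRL had 44 cells of this class and 35 UMIs of Pf4. Platelet markers were also highest in these IRF3/7 cells, at a sum of 65.0 CPM (46 UMIs, with 5 of the 7 markers at 0) against 14.4 CPM in COX2i and 13.4 CPM in COX2i + 5-AZA, and their part in the Pf4 level was not tested. In NK cells, which should lack the gene, Pf4 was at 3.48 CPM in IRF3/7 (7 UMIs), 66.6 CPM in COX2i (17 UMIs) and 132 CPM in COX2i + 5-AZA (251 UMIs). In Myofibrobl, Cxcl14 was at 19.2 CPM in CTRL, 12.9 in IRF3/7, 12.7 in COX2i and 18.8 in COX2i + 5-AZA. The log2 ratio of IRF3/7 to COX2i was 0.03 (-0.43 to 0.48) for Cxcl14 there and to CTRL -0.57 (-1.02 to -0.14), while Fcrls in the same cells was at 0.446 CPM in IRF3/7 and 331 CPM in COX2i.

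The share of cells in which a member was detected was lowest in IRF3/7 for each gene shown here. With each cell thinned to 2000 UMIs, Fcrls was found in 67.3% of monocytes and macrophages of CTRL, 1.28% of IRF3/7, 74.0% of COX2i and 29.9% of COX2i + 5-AZA. Mrc1 was found in 76.9%, 12.3%, 76.0% and 53.5%, and Pf4 in 70.4%, 4.53%, 54.2% and 34.4%. For Pf4 the share was lower in COX2i + 5-AZA than in COX2i although its level was higher, and for Fcrls and Mrc1 the share had the order of the level in these 2 libraries. Lyve1 was found in 4.15%, 0.0246%, 1.79% and 0.915%. Thinning left out 212, 975, 187 and 492 cells that were too shallow. Without thinning the shares for Fcrls were 75.3%, 2.01%, 82.4% and 40.0%, for Mrc1 84.6%, 15.6%, 83.6% and 65.2%, for Pf4 80.8%, 6.02%, 73.2% and 46.3%, and for Lyve1 7.59%, 0.119%, 3.89% and 2.11%.

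The genes were also counted in cells that should lack them, since free RNA is caught with every cell in droplet assays. In NK cells, Fcrls was found, without thinning, in 2 of 11 cells of CTRL, 0 of 568 of IRF3/7 (exact upper limit 0.647%), 46.0% of 50 of COX2i and 15.6% of 437 of COX2i + 5-AZA, and Mrc1 was found in 2.64% of the IRF3/7 and 23.1% of the COX2i + 5-AZA cells. The median depth of these NK cells was 2595, 2674.5, 3099 and 2606 UMIs. Monocytes and macrophages had medians of 6259.5, 3148, 7611.5 and 6300 UMIs. In CPM, Fcrls in NK cells was at 61.6 in CTRL (2 UMIs), 157 in COX2i and 175 in COX2i + 5-AZA, with no UMI in IRF3/7, and in cDC2, a class of dendritic cells, it was at 80.4, 1.53, 137 and 41.2 in the 4 libraries. In both cell types it was lowest in IRF3/7, as in the macrophages. The Fcrls level in Monocyte_1 of COX2i + 5-AZA, 48.6 CPM, was below that of its NK cells, as were those of Gas6, at 7.11 against 40.1 CPM, and Slco2b1, at 0.901 against 6.86 CPM. Stab1 was at 53.1 against 52.7 CPM and Pf4 at 151 against 132 CPM. CPM are taken per UMI and not per cell, and these monocytes were deeper, at a median of 5115 UMIs against 2606 in the NK cells. The values of Fcrls, Gas6, Slco2b1 and Stab1 in these monocytes cannot be told apart from background, and that of Pf4 was little above it. The 65 cells labelled Neutro in CTRL were at 1561 CPM for Fcrls, 1428 for Mrc1 and 1649 for Pf4, far above the NK cells and cDC2 of that library.

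The number of members found per cell at 2000 UMIs summed up the set. In monocytes and macrophages the mean was 3.61 of 10 in CTRL, 0.229 in IRF3/7, 3.29 in COX2i and 1.72 in COX2i + 5-AZA. No member was found in 7.97%, 82.6%, 10.1% and 34.8% of the cells, and 5 or more were found in 37.5%, 0.0739%, 30.3% and 10.8%. COX2i + 5-AZA lay between IRF3/7 and the other libraries in each of these values. Within TAM_C1q the means of CTRL, COX2i and COX2i + 5-AZA were much closer, at 4.87, 4.44 and 4.09. In Infl_Mono they were 2.38, 1.41 and 0.490, and 0.173 in IRF3/7. TAM_H2Ab1 had a mean of 0.629 in IRF3/7 and 2.21 in COX2i + 5-AZA.

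**Figure D5:**
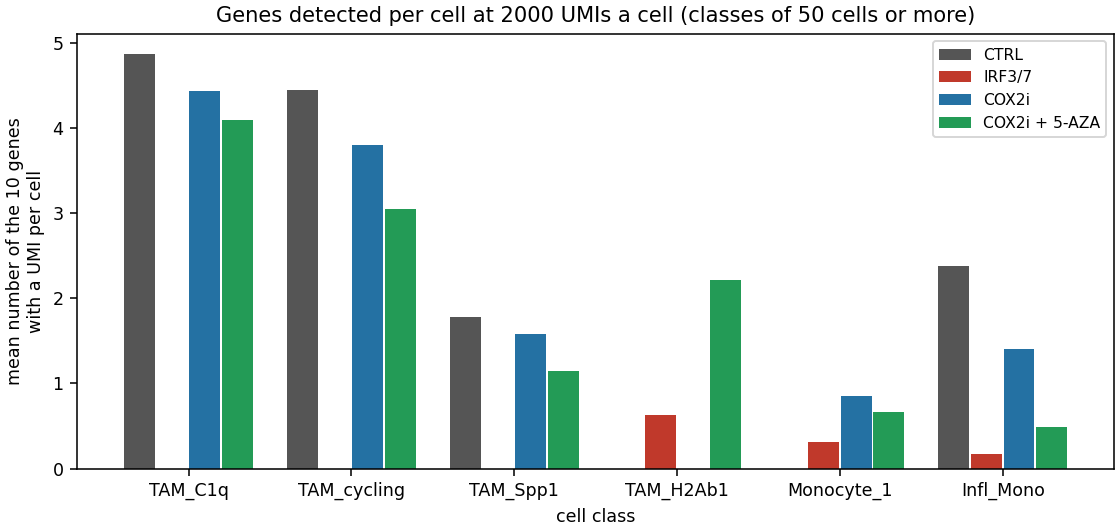
Mean number of the 10 genes with a UMI per cell, with each cell thinned to 2000 UMIs, in each class with at least 50 cells, with 1 bar per library. The bars of the 3 libraries with at least 50 TAM_C1q cells lie close together (4.87, 4.44 and 4.09), and in Infl_Mono the bars range from 2.38 in CTRL to 0.173 in IRF3/7.

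Some members are known from other cell types, so markers of those types were summed in the same cells. For platelets, 7 of 12 markers were in the table, with a summed level in monocytes and macrophages of 86.1 CPM in CTRL, 8.74 in IRF3/7, 25.0 in COX2i and 31.6 in COX2i + 5-AZA. Gp6 was at 0 in CTRL and Treml1 at 0 in IRF3/7. Ppbp, a platelet chemokine whose gene neighbours Pf4, was at 56.2, 4.70, 6.22 and 21.0 CPM, most of the sum in each library but COX2i, and like Pf4 it was highest in CTRL and lowest in IRF3/7. For endothelium, 7 of 12 markers summed to 427, 153, 427 and 367 CPM, of which the greater part was Pdpn in each library but IRF3/7 (394, 15.1, 409 and 292 CPM), where Pecam1 was at 80.7 and Kdr at 48.7 CPM. Fibroblast and tumour markers, 10 of 12 in the table, summed to 324, 75.1, 359 and 151 CPM, lowest in IRF3/7 as the members were. NK and T cell markers, 11 of 11, summed to 1.32, 36.9, 2.13 and 15.8 CPM. The part of platelets, stroma and NK cells in the levels of the members was not tested.

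Other lists of related genes show how far the pattern reached in monocytes and macrophages. They hold no member, and their counts are read beside the background shares given above. Of 18 other scavenger and endocytic receptors, 10 were lower by 2-fold or more and 2 higher in IRF3/7 against CTRL. In COX2i the counts were 2 and 1, in COX2i + 5-AZA against CTRL 7 and 3, and against COX2i 3 and 2. The median over this list was -0.07 in the last comparison, where the members had -1.15. Mgl2, a lectin receptor for galactose-type sugars, was at 22.3 CPM in CTRL, 0.280 in IRF3/7, 84.2 in COX2i and 158 in COX2i + 5-AZA. It shared the low level in IRF3/7 with the members and was higher in both treated libraries.

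Of 18 genes for the uptake of apoptotic cells, the process in which Gas6 acts, 13 were lower and none higher by 2-fold or more in IRF3/7, and 1 was lower in COX2i. In COX2i + 5-AZA against CTRL 5 were lower and 1 higher, and against COX2i 1 and 1. Trem2, a lipid receptor, had a log2 ratio of -2.74 and Abca1, a cholesterol exporter, of -2.65 in IRF3/7. Mertk, the receptor for Gas6, was at -0.90 in COX2i. Of 8 microglia-type genes, the company in which Fcrls is best known, 7 were lower in IRF3/7, none in COX2i, 4 in COX2i + 5-AZA against CTRL and 3 against COX2i. Tmem119 was at 264, 16.1, 310 and 96.2 CPM in the 4 libraries, the same order as Fcrls, with a log2 ratio of -4.03 in IRF3/7 against CTRL where Fcrls had -7.36.

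Of 23 other genes of resident macrophages, 16 were lower and none higher by 2-fold or more in IRF3/7, 5 were lower and 1 higher in COX2i, and 12 were lower and 4 higher in COX2i + 5-AZA against CTRL. Igf1, a growth factor, had a log2 ratio of -5.41 in IRF3/7 and -1.39 in COX2i. Against COX2i, the comparison that shares no library with the choice, 6 were lower and 5 higher. Retnla and Ccl24 were among those higher in COX2i + 5-AZA than in CTRL. Retnla was at 7.77 CPM in CTRL, 28.5 in COX2i and 80.0 in COX2i + 5-AZA. Ccl24, an eosinophil chemokine, was at 19.6, 5.21 and 110 CPM, lower than CTRL in COX2i. Of 15 transcription factors of macrophages, 3 were lower and 5 higher by 2-fold or more in IRF3/7 against CTRL, with a median of 0.61. Pparg (2.60) and Nr1h3 (1.71) were higher there, whereas Bhlhe41 was lower, at -5.15. Of 9 genes of hyaluronan handling, the ligand side of Lyve1, 4 were lower and 2 higher in IRF3/7. The monocyte markers, 11 in all, had a median of 3.43 in IRF3/7, 0.39 in COX2i and 1.07 in COX2i + 5-AZA against CTRL.

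Genes outside the set were ranked by how their level followed the mean of the members over the 40 class and library combinations with at least 50 cells. The points share libraries, depth and the class labels, so the correlation is a description. On the log2(CPM + 1) scale the highest Pearson r among 11474 genes was 0.952 for Cltc, the clathrin heavy chain, followed by Folr2, a folate receptor, at 0.950, Npl at 0.949, Scamp5 at 0.907, Fcna at 0.904, Kcnk13 at 0.902, Rnase4, Selenop and Snx3 at 0.895 and Itsn1 at 0.887. The members themselves had r between 0.726 for Cd163 and 0.959 for Cbr2 with that mean, which contains them. Among pairs of members, r was 0.94 for Mrc1 and Stab1, 0.88 for Cd163 and Lyve1 and 0.19 for Cd163 and Cxcl14.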

How the data were processed

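Fixed CD45+ cells were assayed with Chromium Flex, which counts ligated probe pairs on fixed RNA, so values do not resolve isoforms, and probes shared with near-identical copies were not checked. Per the study's methods, the authors used cellranger multi 7.1.0 and a mouse probe set built on mm10, filtered cells on detected genes and on mitochondrial and ribosomal content, removed ribosomal and mitochondrial genes, and annotated classes after integration, of which the deposited table holds 17 names. No doublet step is stated, and none was added. The deposited matrix gives raw counts of UMIs for 12584 genes in 34447 cells, not normalised by the authors, and the deposited cell table gives library and class, a label with no unit.

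Here UMIs were summed over the cells of a class or group and divided by their total UMIs (CPM). Differences are log2 ratios with exact conditional 95% intervals, and a gene was counted where its UMIs in the 2 libraries summed to 20 or more. A gene was counted as lower or higher from 2-fold. Where a library had no UMI of a gene, 3 UMIs were taken as its floor, between 0.0438 and 0.168 CPM in monocytes and macrophages. Cell shares have exact Clopper-Pearson intervals, and thinning drew 2000 UMIs per cell. A class was used from 50 cells. As each group has 1 library, conditions were not tested against each other, and calculations were tested on simulated counts. Coordinates and promoters are on GRCm38 (RefSeq, 250 upstream bases). From each gene list, up to 3 genes with the largest log2 ratio per comparison (summing to 200 UMIs or more, with 20 CPM or more in the higher library) could be named, together with the 10 genes most like the members. The genes Pmp22, Ctsk and Spp1 were named for lying near the members in rank. The members and the lists were chosen with earlier results of these data known. Python 3.11.15 with numpy 2.4.6, scipy 1.17.1 and pandas 2.3.3 was used.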

Additional observations from a re-analysis of the deposited data

Results flagged for a closer look

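Pf4 differed between COX2i + 5-AZA and COX2i in opposite directions in 2 classes. In TAM_C1q the log2 ratio was 1.05 (1.02 to 1.07), from 28970 against 15984 UMIs, and in Infl_Mono it was -1.13 (-1.32 to -0.93), from 857 against 290 UMIs. Platelet markers moved with Pf4 in both classes, at sums of 53.4 against 31.6 CPM in TAM_C1q and 9.39 against 80.2 CPM in Infl_Mono. The Infl_Mono sums rest on 37 and 49 UMIs, with 3 of the 7 markers at 0 in COX2i. Fibroblast markers (103 against 318 CPM), endothelial markers (143 against 216 CPM) and C1qa (1678 against 4046 CPM) were also lower in these Infl_Mono cells. NK and T cell markers were higher (20.1 against 0 CPM). The part of these shifts in the Pf4 level was not tested. There is 1 library per group, so the difference between the classes was not tested.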

How the results depend on the processing

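Each comparison had 1 library on each side, so no value has a replicate error, and a value was taken as moved when it left its own counting interval. No paired analysis was possible because each group has 1 library. Depth limits IRF3/7 most, where 3 UMIs were 0.168 CPM in monocytes and macrophages and 3 members (Lyve1, Cd163, Slco2b1) had under 20 UMIs. The median log2 ratio of the members kept its sign under every setting. For IRF3/7 against CTRL (-6.45) it was -6.00 with size factors, -5.65 in cells with more than 2000 genes and -6.87 without the 5% of cells with the most UMIs. With the class mix of CTRL it was -6.27, over 9 members and from Infl_Mono alone, since no other class reached 50 cells on both sides. From a single class this value cannot show the effect of the mix. The split over all classes left -5.07 or -1.91 within classes, depending on its order. For COX2i against CTRL (-0.38) it was -0.41 with cells thinned to 2000 UMIs and -0.43 as the mean of each cell's CPM. For COX2i + 5-AZA against CTRL (-1.62) it was -1.49 with size factors, -1.47 in all cells, -1.03 with the class mix of the reference library, -1.84 thinned, -1.79 without the top 5% of cells, -1.88 as mean CPM and -1.76 without TAM_cycling. For COX2i + 5-AZA against COX2i (-1.15) it was -1.0 with size factors, -0.98 in all cells, -0.77 with the class mix, -1.10 in cells with more than 2000 genes, -1.32 thinned, -1.28 without the top 5%, -1.22 without the class Macro, -1.31 as mean CPM and -1.21 without TAM_cycling. Leaving out TAM_cycling and the other order of the class split were chosen after seeing the data. Of single genes, Pf4 in COX2i + 5-AZA against COX2i (0.17) turned to -0.10 when thinned and to -0.13 as mean CPM; the cause was not tested. Size factors moved the median of all genes by 0.45 in IRF3/7 against CTRL, -0.02 in COX2i, 0.13 in COX2i + 5-AZA against CTRL and 0.15 against COX2i.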

Other observations

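Slco2b1 was also found in mast cells. It had 39 UMIs in 38 mast cells of CTRL (122 CPM), 23 UMIs in 13 cells of COX2i (217 CPM) and 30 UMIs in 23 cells of COX2i + 5-AZA (143 CPM), beside 151 CPM in TAM_C1q of CTRL. No UMI was found in the 3 mast cells of IRF3/7.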
